A study of Mus musculus with 18 samples.

Results

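The comparison set Prmt1 knockout (KO) small intestinal crypts against control (WT) crypts at day 7 after the first tamoxifen injection, 6 of the 18 RNA-seq libraries of the series. Its members were chosen by their labels, as the 3 KO and the 3 WT libraries of that day. KO mice carried floxed Prmt1 alleles together with the Vil-CreERT2 transgene, and WT mice were littermates with the same floxed alleles and no Cre. Mice of both genotypes were 8 to 12 weeks old and received 2 mg of tamoxifen on each of 5 consecutive days, so the drug was shared by the groups and the Cre recombinase was not. The villin promoter limits Cre to the intestinal epithelium, and immune or stromal cells that came along with the crypts kept the gene. Crypts were detached with EDTA and passed through a 70 micrometre strainer, and each library was labelled as a separate biological replicate. The other 12 libraries, 3 of each genotype at days 2 and 14, entered the fit and served to show where day 7 differed. Day 2 mice had received 2 injections when they were collected, so days 2 and 7 differed in dose as well as in time.

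PRMT1 is the main type I protein arginine methyltransferase. It places asymmetric dimethylarginine on histone H4, on RNA-binding proteins and on many other proteins. A small intestinal crypt holds stem cells at its base, interspersed with Paneth cells that secrete antimicrobial peptides and growth factors, and a zone of dividing progenitors above them. The progenitors give rise to absorptive enterocytes and to goblet, enteroendocrine and tuft cells. Wnt, Notch and EGF signals keep stem cells dividing, whereas BMP signals accompany differentiation.

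Prmt1 itself measured 22.3, 25.9 and 23.1 CPM in the WT libraries and 13.6, 17.4 and 16.4 CPM in the KO libraries. Every KO library lay below every WT library, a 1.5-fold lower level (log2 fold change -0.59 ± 0.14, adjusted p = 0.00675), and the call was lost without KO replicate 1 (adjusted p = 0.0655). At days 2 and 14 its log2 fold change was -0.89 and -0.72. Counts were summed over all exons of the gene, which lies at chr7:44975989-44986568 (mm10), the floxed exons and the others alike. In bulk tissue, fewer cells of a type and less RNA per cell cannot be told apart. Prmt3, another type I enzyme of the family, measured 25, 31.2 and 27.9 CPM in the WT libraries and 16.2, 19.6 and 20.6 CPM in the KO libraries, with no overlap between groups (-0.57 ± 0.14, adjusted p = 0.00692), and its call too was lost without KO replicate 1 (adjusted p = 0.067). These were the members that fell among the 16 methyltransferase and partner genes tested (0 without KO replicate 1). The 6 libraries held 15285285 to 29330630 counts assigned to genes, with 8.29% to 11.9% of the counts from the mitochondrial genome. The epithelial identity of the tissue showed in Epcam, 892, 1028 and 849 CPM in the WT libraries and 1027, 998 and 757 CPM in the KO libraries, which overlapped between the groups.

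Across the 21349 genes tested, 1517 rose in KO and 2173 fell at an adjusted p under 0.05 (edgeR quasi-likelihood test, Benjamini-Hochberg adjustment over all genes tested). These are 7.11% and 10.2% of the genes, or 17.3% in either direction, and they are the background for every list below. Where a list or a role in it is said to hold no call in a direction, at most 1 of its members passed p under 0.05 before adjustment in that direction and DESeq2 called 0, the Myc targets and the lysosomal genes apart. The median log2 fold change over all genes was 0.016, and among the called genes it was 0.88 for those that rose and -0.97 for those that fell. Changes of more than 2-fold were seen for 656 genes that rose and 1037 that fell, and changes of more than 8-fold for 57 and 43. The 3 KO libraries lay wholly above the 3 WT libraries for 15.9% of the genes tested and wholly below them for 17.7%, and 3597 of the 3690 called genes were among these. KO replicate 1 lay farthest from the WT libraries in many of the lists below: without it 832 genes were called higher and 1219 lower, and without WT replicate 1 or WT replicate 2 the higher calls numbered 952 and 1003. A call was therefore counted as stable when it was kept, with the same sign, in each of the 6 fits that left out 1 day 7 library. Of the 3690 calls, 1689 were stable (45.8%), 610 of them higher in KO and 1079 lower.

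**Figure D1:**
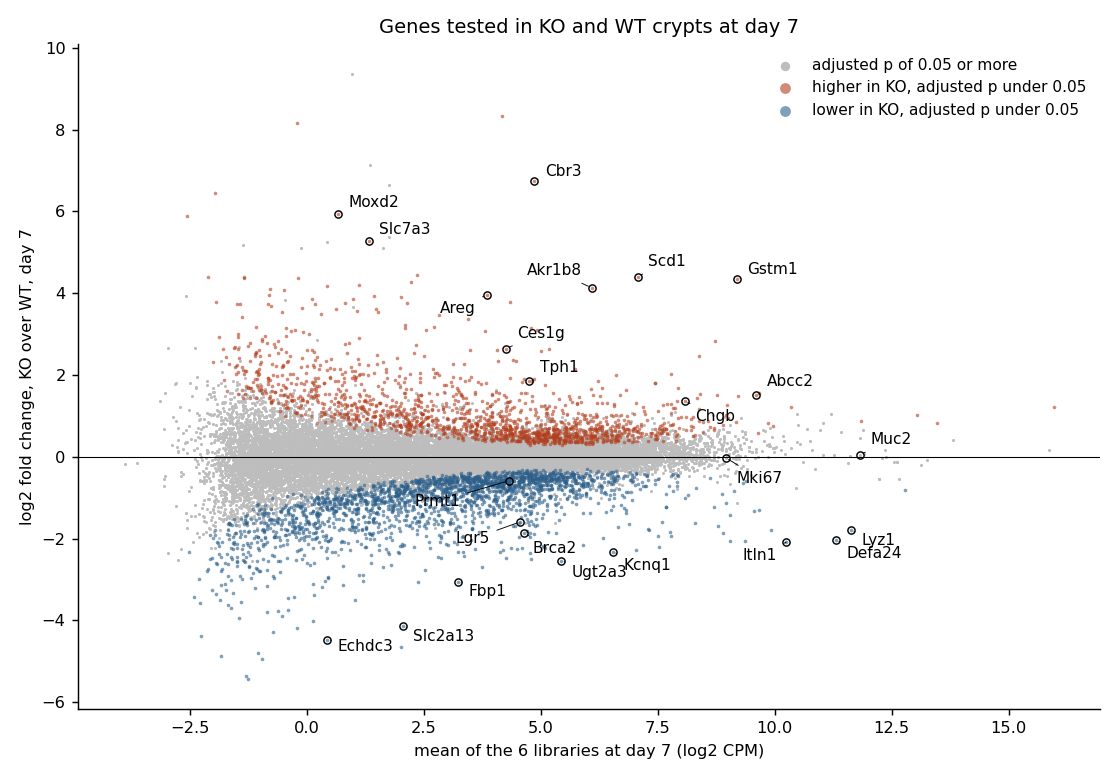
Each point is 1 of the 21349 genes tested, with its mean log2 CPM over the 6 day 7 libraries on the x axis and its log2 fold change KO over WT on the y axis; coloured points passed an adjusted p under 0.05. Called genes lie on both sides over the whole range of levels, 1517 above and 2173 below, and named points mark genes described in the text.

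The genes with the largest increases held detoxification, lipid and interferon-related genes. Cbr3 (chr16:93683215-93690990), a carbonyl reductase, measured 0.504, 0.511 and 0.569 CPM in the WT libraries and 89.4, 52.6 and 29.8 CPM in the KO libraries, so that all KO libraries were far above all WT libraries, and the rise was 107-fold (6.74 ± 0.53, adjusted p = 8.87e-07). Akr1b8, an aldo-keto reductase, rose 17.5-fold and the glutathione transferase Gstm1 20.2-fold. Scd1, the stearoyl-CoA desaturase that makes monounsaturated fatty acids, measured 6.94, 14.6 and 14.9 CPM in the WT libraries and 509, 153 and 105 CPM in the KO libraries (4.41 ± 0.55, adjusted p = 0.000114). KO replicate 1 was highest for Scd1 (log2 fold change 3.44 without KO replicate 1), and the lowest KO library was still above the highest WT library. G0s2, an inhibitor of the triglyceride lipase ATGL, measured 0.504, 0.447 and 0.394 CPM in the WT libraries and 16.1, 5.23 and 5.15 CPM in the KO libraries. It rose 19.3-fold, a log2 fold change of 4.27 with all libraries and 3.53 without KO replicate 1. Slc7a3, a transporter of cationic amino acids, rose 38.9-fold. Ubd, an interferon-inducible ubiquitin-like modifier also known as FAT10, measured 0.252, 0.383 and 0.701 CPM in the WT libraries and 20.1, 3.12 and 5.94 CPM in the KO libraries, with wide spread among the KO libraries and no overlap (4.44 ± 0.95, adjusted p = 0.00539; 3.35 without KO replicate 1). Majin, known as a meiotic telomere-tethering protein, rose 18.4-fold. Moxd2, Acyp2 and Oas1e had few WT reads, and their KO to WT ratios of summed counts, scaled by library size, were 67.0 (95% interval 22.6 to 327.0), 17.9 (7.44 to 56.5) and 19.1 (7.18 to 71.6), intervals that cover counting error only. Single libraries with few reads moved them: the ratio was 43.9 for Moxd2 without WT replicate 3, 29.4 for Acyp2 without WT replicate 3 and 44.3 for Oas1e without WT replicate 1. Without WT replicate 1 no WT read of Moxd2 was left. Ccdc42 had no read in any WT library and 88, 22 and 11 reads in the KO libraries. It was at least 12-fold higher in KO against a floor of 3 counts per library, and at least 4.36-fold without KO replicate 1. All 12 of these increases were stable calls.

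The 12 largest decreases were stable as well. Slc2a13 (chr15:91267696-91573261), a proton-coupled myo-inositol transporter, measured 7.66, 9.2 and 6.48 CPM in the WT libraries and 0.489, 0.386 and 0.437 CPM in the KO libraries, 17.6-fold lower in KO with tight replicates in both groups (-4.14 ± 0.33, adjusted p = 1.54e-07). Echdc3, a mitochondrial enoyl-CoA hydratase domain protein, was 22.2-fold lower. Fbp1, the gluconeogenic fructose-1,6-bisphosphatase, measured 13.7, 19.3 and 16.7 CPM in the WT libraries and 1.38, 1.97 and 2.62 CPM in the KO libraries (-3.05 ± 0.29, adjusted p = 1.50e-06). No KO library came near the WT range for any of these 3 genes. Zc3h6, a CCCH zinc finger gene, measured 7.95, 11.8 and 8.02 CPM in the WT libraries and 1.11, 1.05 and 1.14 CPM in the KO libraries, the most precise of the 12 (-3.06 ± 0.25, adjusted p = 1.98e-07). The nuclear receptor gene Nr2e3 was 11.4-fold lower, Lyplal1 8.84-fold, Xkr5 10.3-fold and the Polycomb-related Scml2 10.9-fold. Crybb3, Cyp2e1 and the pancreatic granule gene Sycn had log2 fold changes of -3.04, -3.43 and -3.75, from WT means of 2.3, 1.51 and 1.41 CPM. Cyp2e1 measured 1.19, 1.85 and 1.49 CPM in the WT libraries and 0.0445, 0.281 and 0.0437 CPM in the KO libraries. Its log2 fold change was -4.90 without KO replicate 2. Sycn measured 0.935, 2.56 and 0.745 CPM in the WT libraries and 0.222, 0.0702 and 0 CPM in the KO libraries. Its log2 fold change was -4.92 without KO replicate 1 and -3.07 without WT replicate 2. The retinol dehydrogenase gene Rdh1 had few KO reads, and its WT to KO ratio was 14.5 (95% interval 5.9 to 46.1, counting error only) and 22.3 without KO replicate 2.

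Paneth cell genes fell widely. Of 15 alpha-defensin genes tested, 14 were lower in KO and none was higher, with a median log2 fold change of -1.97; of 15 other Paneth markers, 10 were lower, among them 7 of 7 antimicrobial and lectin genes. Summed over the defensins, expression was 7647, 6040.0 and 9694 CPM in the WT libraries and 885, 2667 and 2579 CPM in the KO libraries. Every KO library lay below every WT library, and KO replicate 1 was lowest. Lyz1, the Paneth lysozyme, measured 4443, 3543 and 6695 CPM in the WT libraries and 751, 1796 and 1678 CPM in the KO libraries (-1.80 ± 0.38, adjusted p = 0.00303). KO replicate 1 was again lowest, and the other KO libraries stayed below each WT library. Itln1, an intestinal lectin, measured 1960.3, 1574 and 2342 CPM in the WT libraries and 165, 613 and 606 CPM in the KO libraries, 4.25-fold lower (-2.09 ± 0.42, adjusted p = 0.0023), and the angiogenin Ang4 was 4.58-fold lower. Mmp7, the protease that activates defensins in the mouse, measured 212, 216 and 295 CPM in the WT libraries and 33.9, 77.6 and 102 CPM in the KO libraries (-1.76 ± 0.40, adjusted p = 0.00693). Pnliprp2, a lipase, fell 4.47-fold and Mptx1, a pentraxin, 7.8-fold, the latter from a WT mean of 1.08 CPM. The defensin count depended on single libraries, at 7 without KO replicate 1 and 9 without WT replicate 3, and 7 calls were stable, Defa17 (-2.27) and Defa24 (-2.04) among them; 7 of the 10 calls on other markers were stable.

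Defensin genes are near-identical copies in a cluster on chromosome 8, so reads that matched several copies were not counted and the split between copies is uncertain. RefSeq start sites were at hand for 8 of the tested defensin genes, and all 8 had the letters TATAAA on either strand within the 250 bases before the start, against 14.3% of 27025 promoters of the table and 9.02% of those of the genes tested. The stretches below are shown so that the promoters of the copies can be set side by side. They are the forward matches with 24 bases on either side on the strand of the gene (GRCm38.p6), the motif in capitals.
Defa21, chr8:21025490-21025543, motif 31 bases before the start: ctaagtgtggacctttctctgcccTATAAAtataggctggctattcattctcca
Defa23, chr8:21054983-21055036, 33 bases before: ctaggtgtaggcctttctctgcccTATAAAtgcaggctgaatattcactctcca
Defa30, chr8:21134565-21134618, 61 bases before: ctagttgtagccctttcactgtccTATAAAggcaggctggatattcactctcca
Defa22, at chr8:21162222-21162275, had the same letters in this stretch as Defa21. Defa21 measured 702, 499 and 1042 CPM in the WT libraries and 110.2, 215 and 295 CPM in the KO libraries (-1.85 ± 0.49, adjusted p = 0.0153), and its call was lost without KO replicate 1 or WT replicate 3 (adjusted p = 0.0621 to 0.0795). Defa30 measured 1572, 1306 and 1606 CPM in the WT libraries and 170.5, 642 and 487 CPM in the KO libraries (-1.79 ± 0.47, adjusted p = 0.0144), and its call was lost without KO replicate 1 (adjusted p = 0.0518). Both were lowest in KO replicate 1.

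Goblet and tuft cell genes moved in part. Muc2, the main secreted mucin, overlapped between groups at 3582, 3075 and 3997 CPM in the WT libraries and 4369.6, 3145 and 3508 CPM in the KO libraries (log2 fold change 0.05 ± 0.19, adjusted p = 0.897), and Tff3, a trefoil peptide, did too (0.18 ± 0.18, adjusted p = 0.546). Of 18 goblet markers, 5 fell and 2 rose (0 without WT replicate 2). Fcgbp, a mucus protein, measured 9729.6, 7837 and 9335 CPM in the WT libraries and 5727, 4653 and 4906 CPM in the KO libraries, without overlap and with a call kept in every fit (-0.82 ± 0.20, adjusted p = 0.00834). Spink4, a protease inhibitor, was 1.9-fold lower, Guca2a, which encodes guanylin, 2.45-fold, and the chemokine Ccl6 2.61-fold. Creb3l1 (0.63) and Fer1l6 (0.52) rose, Creb3l1 losing its call without WT replicate 2 (adjusted p = 0.0846) and Fer1l6 losing it without WT replicate 2 (adjusted p = 0.0566). Of 20 tuft markers, 5 fell and none rose (median -0.51), and the count was 3 without KO replicate 1 or WT replicate 1. Dclk1 measured 26.5, 29.8 and 22.9 CPM in the WT libraries and 5.78, 15.5 and 17 CPM in the KO libraries, with KO replicate 1 far below the rest (-1.04 ± 0.26, adjusted p = 0.0106). Trpm5, the taste-pathway channel of tuft cells, overlapped at 23.4, 23 and 21.1 CPM in the WT libraries and 10.5, 20.4 and 23.7 CPM in the KO libraries (-0.31 ± 0.20, adjusted p = 0.336). Sox9 (-0.73) and Cd24a (-0.87), the other stable calls of this list, are also expressed by stem and Paneth cells.

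Enteroendocrine genes rose. Of 27 hormone and granule genes, 17 were higher and 2 lower in KO (median 0.99), and 13 of the rises were stable. The decreases numbered 1 without KO replicate 1 or KO replicate 2. Tph1, which makes serotonin in enterochromaffin cells, measured 11.5, 11.4 and 12.2 CPM in the WT libraries and 47.1, 43 and 36.2 CPM in the KO libraries, with little spread within either group (1.85 ± 0.18, adjusted p = 2.00e-06). Chga and Chgb, granins of the secretory granule, rose 2.04-fold and 2.58-fold, Gcg, which encodes glucagon-like peptides, 2.41-fold, and Pyy, a hormone of more distal gut, 5.56-fold from a WT mean of 1.69 CPM. Ghrl, which encodes ghrelin, moved the other way at 10.7, 11.5 and 10.3 CPM in the WT libraries and 6.54, 6.21 and 7.64 CPM in the KO libraries (-0.67 ± 0.17, adjusted p = 0.00876). Sst, somatostatin of D cells, overlapped (0.03 ± 0.28, adjusted p = 0.958). The hormones therefore differed in direction, with the serotonin, glucagon and peptide YY genes up and the ghrelin gene down. Of 24 enteroendocrine transcription factors, 7 rose and 3 fell (1 without KO replicate 1 or WT replicate 1). Neurog3, which commits progenitors to this lineage, measured 2.7, 3.19 and 3.07 CPM in the WT libraries and 5.25, 7.16 and 5.89 CPM in the KO libraries (1.04 ± 0.23, adjusted p = 0.00356), and Neurod1 (1.20), Pax6 (1.12) and Insm1 (1.04), which act after it, were higher without overlap. The rises numbered 4 without KO replicate 2, KO replicate 3, WT replicate 2 or WT replicate 3, and these 4 factors were the stable rises.

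**Figure D2:**
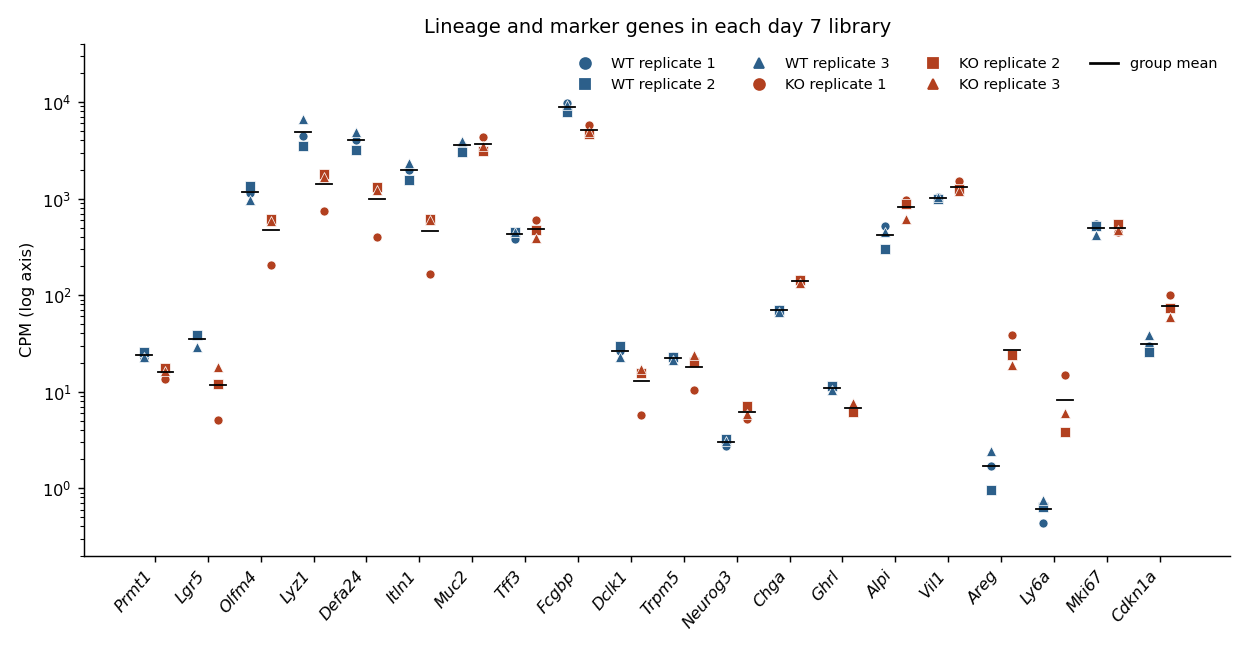
CPM of 20 lineage and stem cell genes in each of the 6 day 7 libraries, on a log10 axis, with a marker shape per replicate and a colour per genotype. Lyz1, Lgr5, Olfm4 and Dclk1 lie lower in KO with KO replicate 1 lowest, Chga, Neurog3 and Areg lie higher, and Muc2 and Trpm5 overlap; black bars are group means.

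Stem cell genes fell: 13 of 22 tested were lower in KO, 10 of 17 Wnt targets, Olfm4 and 2 of 4 markers of reserve cells, and 1 was higher, with a median of -0.74. Lgr5, the R-spondin receptor that marks crypt base stem cells, measured 38.3, 39 and 29 CPM in the WT libraries and 5.07, 12.1 and 18.2 CPM in the KO libraries (-1.59 ± 0.29, adjusted p = 0.00131). Smoc2, a matricellular protein of these cells, measured 112, 133 and 115 CPM in the WT libraries and 31.2, 57.5 and 53.5 CPM in the KO libraries (-1.34 ± 0.17, adjusted p = 3.62e-05). Both genes separated the groups fully, and KO replicate 1 was lowest for both. Olfm4 was 2.46-fold lower, Tnfrsf19 2.73-fold and the cotransporter gene Slc12a2 2.35-fold. Ascl2, the transcription factor of crypt base cells, lay at 5.5, 5.43 and 5.61 CPM in the WT libraries and 1.82, 4.07 and 4.06 CPM in the KO libraries, without overlap, and missed the threshold (-0.73 ± 0.27, adjusted p = 0.0741). Cd44, a hyaluronan receptor, was the gene of this list that rose (0.70 ± 0.16, adjusted p = 0.00504). Of the 14 calls, 10 decreases and 1 increase were stable.

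Among 25 Wnt genes, 4 of 7 feedback genes fell, 0 of 8 signal mediators moved in either direction, and of 5 ligands 1 rose and 2 fell. Nkd1, a feedback inhibitor, measured 2.91, 2.36 and 3.99 CPM in the WT libraries and 0.712, 1.51 and 1.31 CPM in the KO libraries (-1.38 ± 0.28, adjusted p = 0.00181). Axin2, the usual reporter of canonical Wnt activity, overlapped at 113, 94.4 and 105 CPM in the WT libraries and 53.9, 76.7 and 113 CPM in the KO libraries (-0.36 ± 0.19, adjusted p = 0.207), with KO replicate 3 as high as the highest WT library, and without that library it was called lower (-0.64, adjusted p = 0.00927). Rnf43, a ligase that removes Wnt receptors, fell 1.72-fold in a stable call. Wnt6 rose (1.44 ± 0.33, adjusted p = 0.00533) and Wnt3, a ligand made by Paneth cells, was lower (-0.87 ± 0.26, adjusted p = 0.026), its call lost without KO replicate 1, KO replicate 2, WT replicate 1 or WT replicate 3 (adjusted p = 0.052 to 0.153). The number of decreases in the list was 6 with all libraries, and 2 without KO replicate 1, KO replicate 2 or WT replicate 3. Of 19 Notch and secretory fate genes, 1 rose and 1 fell (0 without KO replicate 1, 2 without KO replicate 2 or WT replicate 2 and 3 without KO replicate 3); Hes1, a Notch target, overlapped (-0.29 ± 0.15, adjusted p = 0.213), and Atoh1, which sets the secretory fate, missed the threshold (0.24 ± 0.16, adjusted p = 0.335).

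Epidermal growth factor (EGF) family ligands changed in opposite directions. Areg, amphiregulin, measured 1.69, 0.958 and 2.41 CPM in the WT libraries and 38.4, 23.9 and 18.7 CPM in the KO libraries, 15.6-fold higher in KO (3.96 ± 0.43, adjusted p = 1.63e-05). Ereg, epiregulin, measured 2.3, 3.96 and 2.89 CPM in the WT libraries and 18.5, 11.6 and 13.1 CPM in the KO libraries (2.26 ± 0.45, adjusted p = 0.00264). In both cases the lowest KO library was far above the highest WT library. Egf itself, a ligand that Paneth cells make, measured 5.25, 4.41 and 6.48 CPM in the WT libraries and 2.09, 2.67 and 3.23 CPM in the KO libraries and was lower (-1.02 ± 0.19, adjusted p = 0.00122). Spry4, a feedback inhibitor of receptor tyrosine kinase signalling, rose 3.38-fold. The EGF list held 6 increases and 2 decreases among 20 genes, and the increases numbered 3 without KO replicate 1, WT replicate 1 or WT replicate 2 and the decreases 1 without KO replicate 1, WT replicate 1 or WT replicate 3. In the BMP pathway, the Id genes, direct targets, all rose: Id4 measured 4.07, 2.68 and 3.85 CPM in the WT libraries and 17.5, 13 and 10.9 CPM in the KO libraries (1.95 ± 0.25, adjusted p = 3.79e-05), and Id1, Id2 and Id3 were higher by 0.68, 0.76 and 0.65. Id4 kept its call in every fit, while those of Id1, Id2 and Id3 were lost without KO replicate 1 or WT replicate 1 (adjusted p = 0.0561 to 0.0664), without KO replicate 1 or WT replicate 3 (adjusted p = 0.0664 to 0.0685) and without KO replicate 1, KO replicate 2 or WT replicate 2 (adjusted p = 0.0587 to 0.0904), and without KO replicate 1 it was the only one of the 4 increases left. Bmp7 (-1.09) and Bambi (-1.83), a pseudoreceptor that dampens BMP signals, fell in stable calls, and no BMP receptor moved.

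Of 23 genes of regenerating and fetal-like epithelium, 9 rose, none fell and 14 were not called, at a median of 1.21. Their summed expression overlapped between the groups, at 1015, 1420.0 and 1239 CPM in the WT libraries and 2046, 1697 and 1154 CPM in the KO libraries. Ly6a, which encodes the surface antigen SCA1, measured 0.432, 0.639 and 0.745 CPM in the WT libraries and 14.9, 3.83 and 5.98 CPM in the KO libraries (3.77 ± 0.64, adjusted p = 0.000701), low in each WT library and spread widely among the KO libraries. Its log2 fold change was 3.04 without KO replicate 1. Il1rn, the interleukin 1 receptor antagonist, rose 5.88-fold, the annexin Anxa3 3.0-fold and the alarmin Il33 2.57-fold. Clu, clusterin of revival stem cells, measured 1.44, 3.26 and 2.37 CPM in the WT libraries and 6.23, 4.39 and 5.37 CPM in the KO libraries, and missed the threshold (1.21 ± 0.63, adjusted p = 0.223). Anxa1 overlapped (1.03 ± 0.79, adjusted p = 0.426). Areg and Ereg belong to this list too, and 6 of the 9 rises were stable.

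Replication and mitosis genes were called at shares near the background, 14.3% and 19.5%. Mki67, carried by all cycling cells, overlapped at 545, 521 and 424 CPM in the WT libraries and 448, 549 and 473 CPM in the KO libraries (-0.02 ± 0.16, adjusted p = 0.957), and Mcm2 of the replication licensing complex did too (-0.13 ± 0.15, adjusted p = 0.604). Of 42 replication genes 6 fell and none rose, 0 of 12 licensing genes among them; the clamp loader subunits Rfc4 (-0.84 ± 0.19, adjusted p = 0.00441) and Rfc2 (-0.49 ± 0.11, adjusted p = 0.00432) were the stable calls. The replication count was 2 without KO replicate 1 or KO replicate 3 and 3 without WT replicate 2. Of 41 mitosis genes 6 fell and 2 rose. The number that fell was 0 without KO replicate 1, 1 without WT replicate 3, 2 without KO replicate 3 and 3 without WT replicate 1, the number that rose 0 without KO replicate 2, WT replicate 1 or WT replicate 2 and 1 without KO replicate 1, KO replicate 3 or WT replicate 3, and none of these calls was stable. Replication-dependent histone genes had a median of -0.71, and 10 of 41 were called lower. The histone count ran from 0 to 25 (0 without KO replicate 1, KO replicate 3 or WT replicate 2, 4 without WT replicate 3 and 25 without KO replicate 2). Summed histone expression was 2223, 3335 and 2459 CPM in the WT libraries and 1564, 2227 and 1108 CPM in the KO libraries, with KO replicate 3 lowest and WT replicate 2 highest; these transcripts lack poly(A) tails and have near-identical copies.

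Regulators of the G1 phase moved both ways. Cdkn1a, the p21 inhibitor, measured 29.7, 26 and 38.7 CPM in the WT libraries and 99.3, 74.3 and 59.4 CPM in the KO libraries (1.30 ± 0.27, adjusted p = 0.00323), and Cdkn1c, the p57 inhibitor, was 3.14-fold higher (1.65 ± 0.29, adjusted p = 0.000626). Cdkn2c, an inhibitor of CDK4 and CDK6, measured 10.9, 10.2 and 11.5 CPM in the WT libraries and 3.51, 5.48 and 4.32 CPM in the KO libraries, lower without overlap (-1.29 ± 0.19, adjusted p = 9.97e-05), and Cdk6 itself fell 1.99-fold. The activator E2f2 rose (0.83) and the repressor E2f7 fell (-1.38), and all these calls were stable. Among 35 p53 targets 12 rose and 2 fell, 5 of 8 arrest genes being higher. Plk2 measured 2.91, 2.17 and 1.88 CPM in the WT libraries and 9.92, 7.69 and 7.42 CPM in the KO libraries (1.83 ± 0.25, adjusted p = 6.78e-05), Phlda3 rose 4.21-fold, Mdm2, which ubiquitinates p53, rose by 0.56 ± 0.12, and Bax, a pore-forming apoptosis effector, by 0.56 ± 0.14. Trp53 itself overlapped (-0.02 ± 0.12, adjusted p = 0.934). Phlda3 and Plk2 had log2 fold changes of 2.37 and 1.20 at day 2, when most genes called at day 7 were near 0. The p53 decreases numbered 1 without KO replicate 1, KO replicate 2, WT replicate 1, WT replicate 2 or WT replicate 3. The p53 rises numbered 7 without WT replicate 1 or WT replicate 2, and 5 were stable.

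Of 32 genes of homologous recombination, Fanconi anaemia and checkpoint signalling, 12 fell, 2 rose and 18 were not called. The decreases were 6 of 10 Fanconi anaemia genes, 5 of 15 homologous recombination genes and 1 of 7 checkpoint genes. Brca2, a mediator of strand exchange in this repair, measured 36.1, 43.7 and 37.3 CPM in the WT libraries and 9.65, 11.6 and 10.7 CPM in the KO libraries, 3.66-fold lower with tight replicates in both groups (-1.87 ± 0.14, adjusted p = 1.11e-07). Rad51c fell 4.46-fold from a WT mean of 1.15 CPM. Both calls were stable, and they were the stable ones of the list. Brca1 (0.44) and the checkpoint kinase gene Chek1 (0.62) were the 2 that rose. The call on Brca1 was lost without KO replicate 2, KO replicate 3, WT replicate 1, WT replicate 2 or WT replicate 3 (adjusted p = 0.0846 to 0.143), and also with no filter, with a minimum mean count of 50, or without the 20 most abundant genes (0.0536 to 0.0652); that on Chek1 was lost without WT replicate 3 (adjusted p = 0.0625). Fancd2 measured 17.2, 16 and 17.8 CPM in the WT libraries and 9.07, 13.3 and 12.7 CPM in the KO libraries (-0.54 ± 0.16, adjusted p = 0.0255), and its call was lost without KO replicate 1, WT replicate 1 or WT replicate 3 (adjusted p = 0.0697 to 0.201). The list's decreases numbered 2 without KO replicate 1, 5 without WT replicate 1 and 7 without WT replicate 2 or WT replicate 3.

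Genes of the antioxidant response rose widely. NRF2, encoded by Nfe2l2, is a transcription factor held down by KEAP1 and freed by oxidants and electrophiles. Its target list held 24 genes that rose and none that fell among 38 tested (median 0.94), and 19 of the rises were stable. By role, 8 of 10 thiol genes, 8 of 9 regulators and export pumps, 4 of 9 quinone and carbonyl reductases, 3 of 5 NADPH-supplying enzymes and 1 of 5 iron and haem genes were higher. Nqo1, a quinone reductase, measured 19.6, 28.2 and 28.3 CPM in the WT libraries and 102, 71.1 and 40.7 CPM in the KO libraries (1.49 ± 0.29, adjusted p = 0.00232). Gclc, the catalytic subunit of the first enzyme of glutathione synthesis, measured 45.8, 53.3 and 48.4 CPM in the WT libraries and 175, 104 and 86.7 CPM in the KO libraries (1.31 ± 0.19, adjusted p = 0.000121), and its partner Gclm rose 2.03-fold. KO replicate 1 was highest for all 3 genes, and none of the KO libraries reached down to the WT range. Gsr, which reduces oxidised glutathione, measured 149, 173 and 199 CPM in the WT libraries and 666, 493 and 357 CPM in the KO libraries (1.54 ± 0.22, adjusted p = 9.97e-05). Of the enzymes that supply NADPH, Pgd rose 2.3-fold, G6pdx 2.05-fold and Me1 3.64-fold. Txnrd1, thioredoxin reductase, rose 1.9-fold and Srxn1, sulfiredoxin, 2.31-fold. Abcc2, an export pump for conjugates, measured 457, 364 and 385 CPM in the WT libraries and 1496, 1027 and 899 CPM in the KO libraries (1.51 ± 0.25, adjusted p = 0.000407), and Ugdh, which makes UDP-glucuronic acid, rose 3.2-fold. Hmox1, haem oxygenase 1, was low at 0.18, 0.256 and 0.438 CPM in the WT libraries and 0.934, 0.702 and 0.568 CPM in the KO libraries and missed the threshold (1.33 ± 0.84, adjusted p = 0.315). Nfe2l2 itself measured 140.0, 142 and 139 CPM in the WT libraries and 287, 221 and 172 CPM in the KO libraries (0.69 ± 0.17, adjusted p = 0.00704), its call lost without KO replicate 1 (adjusted p = 0.0528), and Keap1 had a log2 fold change of -0.14 ± 0.11 (adjusted p = 0.412).

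Glutathione genes rose with them: of 35 transferase, peroxidase and glutathione synthesis genes, 20 were higher and 1 was lower. The rises were 4 of 4 alpha, 5 of 7 mu and 4 of 12 other transferases, 2 of 6 peroxidases and 5 of 6 synthesis genes. This list and the NRF2 list share genes such as Gsr. Gsta3 measured 4.39, 5.75 and 6.74 CPM in the WT libraries and 58.2, 48.4 and 42.1 CPM in the KO libraries (3.14 ± 0.25, adjusted p = 1.93e-07), and Gstm1 measured 47.6, 45.6 and 71.3 CPM in the WT libraries and 1757, 936 and 637 CPM in the KO libraries (4.34 ± 0.46, adjusted p = 1.70e-05). Gstm3 rose 7.15-fold, Gsta2 8.52-fold, Gsta4 3.21-fold and Gstp1 2.5-fold. Gpx2, the glutathione peroxidase of gut epithelium, measured 141, 197 and 159 CPM in the WT libraries and 339.9, 364 and 263 CPM in the KO libraries (0.96 ± 0.20, adjusted p = 0.00226), and Gstz1, of tyrosine breakdown, was the member that fell (-0.68 ± 0.13, adjusted p = 0.00104). Summed over the list, expression was 1848, 2318 and 2110.0 CPM in the WT libraries and 6847, 5039 and 3608 CPM in the KO libraries, highest in KO replicate 1. Transferase genes of a class are similar in sequence, and reads that matched several were not counted.

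The letters TGACNNNGC, the core of antioxidant response elements, were searched on both strands in the 250 bases before RefSeq starts. They occurred in 11.5% of all 27025 promoters, in 13.7% of the tested genes with a promoter, in 15.7% of those that rose, in 8 of 31 NRF2 targets (25.8%) and in 7 of 31 glutathione genes (22.6%). The called NRF2 targets had them in 7 of 19 promoters (36.8%). Matching stretches of genes with stable rises follow, to show where the letters stand, in the direction of the gene and with the match in capitals (GRCm38.p6).
Gsta3, chr1:21240440-21240496, 121 bases before the start: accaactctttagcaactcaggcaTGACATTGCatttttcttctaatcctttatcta
Abcc2, chr19:43782186-43782242, 98 bases before: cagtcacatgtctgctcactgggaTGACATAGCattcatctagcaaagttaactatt
Ugdh, chr5:65435942-65435998, 132 bases before: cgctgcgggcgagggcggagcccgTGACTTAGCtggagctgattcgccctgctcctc
Gclm, chr3:122245399-122245455, 134 bases before, match on the opposite strand: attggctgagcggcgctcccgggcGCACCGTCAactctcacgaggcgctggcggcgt
Cbr3, Akr1b8, Gstm1 and Nqo1 had no such letters in this window.

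**Figure D3:**
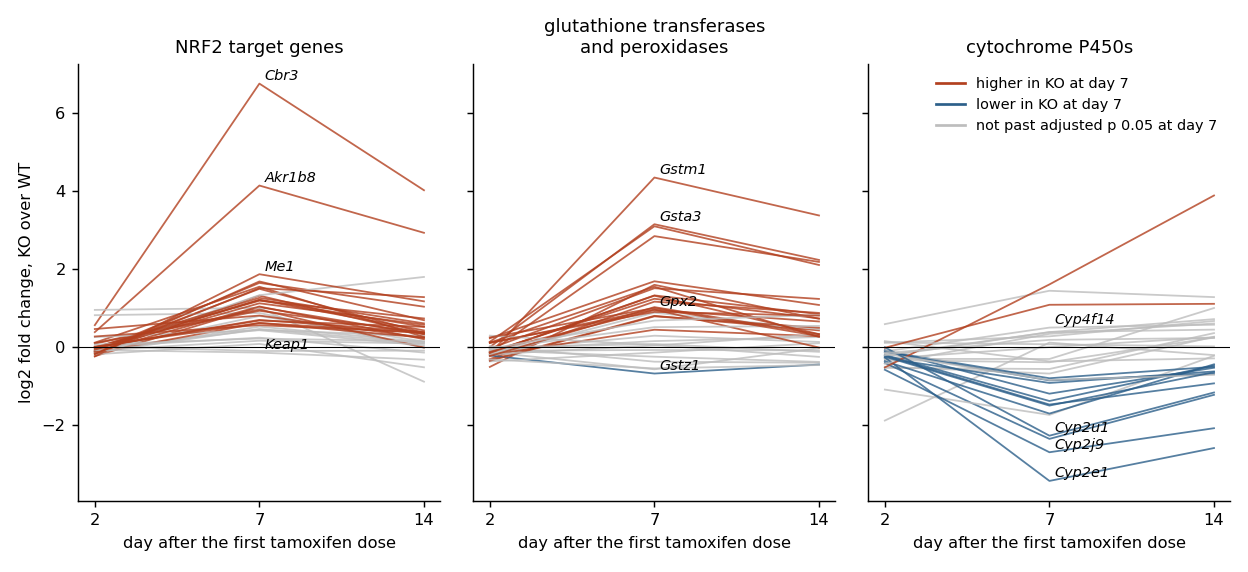
Log2 fold change KO over WT of the genes of the NRF2, glutathione and cytochrome P450 lists at days 2, 7 and 14, a line per gene coloured by its call at day 7. The medians of the NRF2 and glutathione lists were -0.05 and -0.12 at day 2, 0.94 and 0.88 at day 7 and 0.33 and 0.33 at day 14, and those of the P450 list -0.24, -0.56 and -0.21.

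Part of the cytochrome P450 genes went the other way. Of 17 xenobiotic and 11 endogenous P450 genes tested, 6 of each fell and 1 rose, Cyp26b1, a retinoic acid hydroxylase; with 3 genes of electron supply the list had a median of -0.56, and 10 of the decreases were stable. Cyp2u1, a fatty acid hydroxylase, measured 26.8, 33.1 and 31.2 CPM in the WT libraries and 7.2, 6.04 and 5.59 CPM in the KO libraries (-2.27 ± 0.17, adjusted p = 1.01e-07), with both groups tight. Cyp2c66, an arachidonic acid epoxygenase of the gut, measured 45.9, 43.3 and 46.9 CPM in the WT libraries and 4.85, 10.6 and 11.1 CPM in the KO libraries (-2.35 ± 0.47, adjusted p = 0.00356). Cyp2j6 measured 122, 147 and 122 CPM in the WT libraries and 53.2, 57.7 and 59.8 CPM in the KO libraries (-1.20 ± 0.26, adjusted p = 0.00349), Cyp27a1, a sterol hydroxylase, was 2.78-fold lower, and the oxysterol hydroxylase Cyp39a1 2.83-fold. Cyp3a11 and Cyp3a13, P450s of liver and intestine, overlapped (-0.31 ± 0.38, adjusted p = 0.65 and 0.27 ± 0.27, adjusted p = 0.553). Por, the reductase that all microsomal P450s share, rose (1.08 ± 0.33, adjusted p = 0.0319), and its call was lost without KO replicate 1, KO replicate 2, WT replicate 1, WT replicate 2 or WT replicate 3 (adjusted p = 0.0566 to 0.166). The rises on this list, Cyp26b1 and Por, numbered 0 without KO replicate 1, KO replicate 2, WT replicate 1, WT replicate 2 or WT replicate 3. Ugt2a3, a glucuronosyltransferase, measured 68.4, 90.8 and 60.4 CPM in the WT libraries and 11.6, 13.6 and 12.5 CPM in the KO libraries (-2.54 ± 0.29, adjusted p = 2.11e-05), the 1 call among 19 conjugating enzymes of that kind, with a rise added without KO replicate 3.

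Many glycolysis genes rose: 13 of 22 were higher and 1 was lower, with 10 of 16 enzymatic steps. The glucose transporter Slc2a1 measured 17.4, 15.4 and 21.2 CPM in the WT libraries and 51.6, 38.8 and 30.7 CPM in the KO libraries (1.16 ± 0.19, adjusted p = 0.000271), and Hk1, hexokinase 1, rose 2.83-fold. Pfkl, Aldoa and Eno1, a phosphofructokinase, an aldolase and an enolase, rose by 0.94, 0.98 and 0.98, and the lactate exporter Slc16a3 by 1.22. Pdk1, a kinase that inhibits pyruvate dehydrogenase, was the member that fell, at 43.6, 57.8 and 43.4 CPM in the WT libraries and 25, 26.9 and 22.9 CPM in the KO libraries (-0.95 ± 0.13, adjusted p = 4.98e-05). Ldha, lactate dehydrogenase A, overlapped and missed the threshold (0.64 ± 0.25, adjusted p = 0.0862), but passed it without KO replicate 3 (0.89, adjusted p = 0.0124) and with no filter (adjusted p = 0.0212). Without KO replicate 3 there were 2 decreases in the list. Of the 13 increases 9 were stable, and Fbp1, the reverse enzyme described above, fell.

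Stress genes were higher in part. Of 40, 9 rose and none fell, 8 of 21 of the integrated stress response and 1 of 19 of the unfolded protein response. Atf4, its central transcription factor, measured 92.9, 104 and 107 CPM in the WT libraries and 169.6, 149.8 and 121 CPM in the KO libraries (0.53 ± 0.13, adjusted p = 0.00715), and Ddit3, known as CHOP, measured 10.2, 9.26 and 10.8 CPM in the WT libraries and 15.3, 13.3 and 16.1 CPM in the KO libraries (0.56 ± 0.14, adjusted p = 0.0105); these were the stable calls. Trib3 rose 2.43-fold, a call lost without KO replicate 1, WT replicate 1 or WT replicate 2 (adjusted p = 0.0726 to 0.135), and Asns, a classical ATF4 target, overlapped (0.02 ± 0.23, adjusted p = 0.966). The list's increases numbered 3 without KO replicate 1, 4 without KO replicate 2, WT replicate 1 or WT replicate 2 and 14 without KO replicate 3. The metallothionein gene Mt2 measured 5.83, 10.5 and 13.9 CPM in the WT libraries and 111, 48.5 and 28.3 CPM in the KO libraries (2.64 ± 0.63, adjusted p = 0.0108). It had 1.96 without KO replicate 1, and its call was lost without KO replicate 1 or WT replicate 1 (adjusted p = 0.0535 to 0.0569). The ferritin light chain Ftl1 rose 2.39-fold in a stable call. Of 21 immediate early genes 6 rose; Nr4a1 (1.34) was the stable one, and Fos missed the threshold (0.50 ± 0.45, adjusted p = 0.513). That count was 1 without WT replicate 1, WT replicate 2 or WT replicate 3 and 2 without KO replicate 1 or KO replicate 2.

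**Figure D4:**
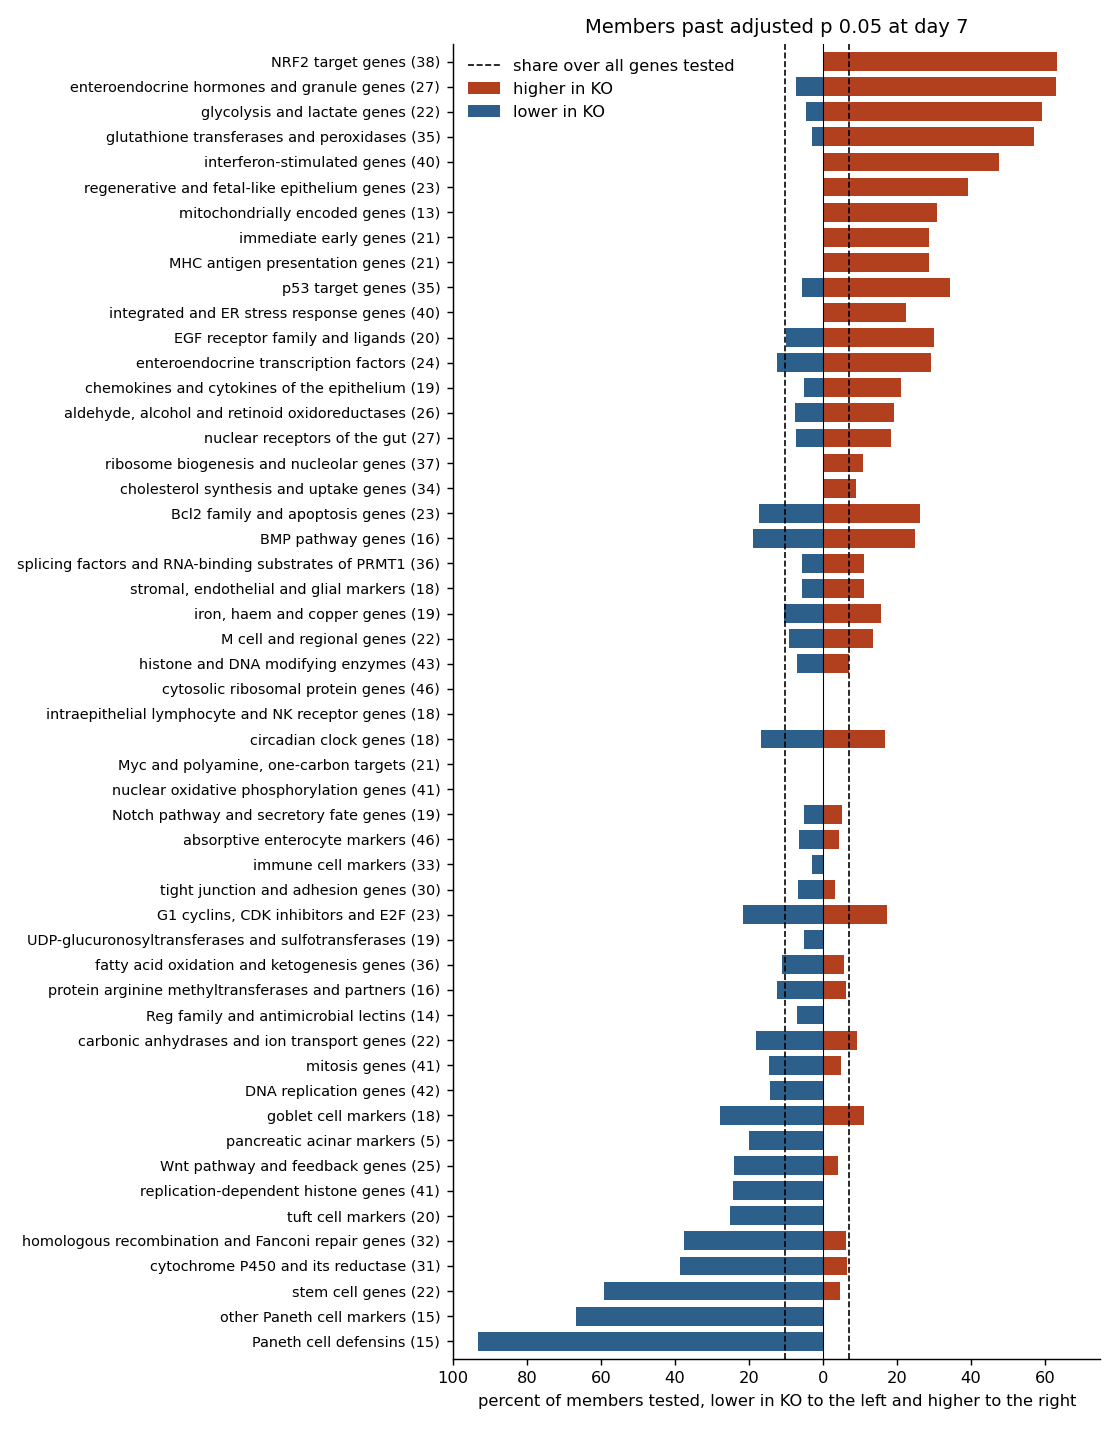
For each of the lists, the percent of its tested members called higher (to the right) and lower (to the left) in KO at day 7, with dashed lines at the shares over all genes tested, 7.11% and 10.2%. NRF2 targets, hormone genes and glycolysis extend farthest to the right, and defensins, other Paneth markers and stem cell genes farthest to the left.

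Interferon-stimulated genes rose in part: 19 of 40 rose and none fell, at a median of 0.78. Isg15, a ubiquitin-like protein induced by interferon, measured 1.51, 1.6 and 1.58 CPM in the WT libraries and 8.72, 3.93 and 4.72 CPM in the KO libraries (1.88 ± 0.44, adjusted p = 0.00697). Mx2, a GTPase that restricts viruses, measured 2.01, 1.21 and 2.19 CPM in the WT libraries and 7.03, 5.26 and 7.29 CPM in the KO libraries (1.82 ± 0.36, adjusted p = 0.0016), and Zbp1, a sensor of Z-form nucleic acids, rose 2.47-fold. Ifit1bl1 rose 3.73-fold and Oasl1 2.57-fold. These 5 were the stable calls, and no KO library overlapped the WT range for any of them. The immunity-related GTPase genes Iigp1 and Igtp had log2 fold changes of 3.54 ± 0.97 (1.56 without KO replicate 1 and 5.02 without WT replicate 1) and 2.36 ± 0.60 (1.18 without KO replicate 1), but their calls were not stable. That of Iigp1 was lost without KO replicate 1, WT replicate 2 or WT replicate 3 (adjusted p = 0.0784 to 0.185), and that of Igtp without KO replicate 1, WT replicate 2 or WT replicate 3 (adjusted p = 0.0586 to 0.0703). Irf7 overlapped (0.48 ± 0.34, adjusted p = 0.379). The list's increases numbered 6 without KO replicate 1, 8 without WT replicate 2 and 9 without WT replicate 3. In antigen presentation, 6 of 14 class I genes rose and 0 of 7 class II genes, with medians of 0.64 and 0.95; the class II genes had log2 fold changes of 0.51 to 1.26, all positive. Without KO replicate 1 the medians were 0.51 and 0.32, and the difference between the classes was not tested. Psmb8, an immunoproteasome subunit, measured 39.7, 29.3 and 27.8 CPM in the WT libraries and 169, 109.5 and 72 CPM in the KO libraries (1.85 ± 0.30, adjusted p = 0.000539), Tap1, which carries peptides into the endoplasmic reticulum, measured 49.9, 30.2 and 46.7 CPM in the WT libraries and 143, 91.5 and 81.4 CPM in the KO libraries (1.31 ± 0.27, adjusted p = 0.00269), and Psmb9 was 2.16-fold higher. The light chain B2m missed the threshold (0.40 ± 0.24, adjusted p = 0.276), and the class II chaperone Cd74 overlapped (0.96 ± 0.84, adjusted p = 0.495).

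The letters GAAANNGAAA, as in interferon-stimulated response elements, occurred on either strand in 3.46% of the 27025 promoters, in 3.69% of the promoters of genes that rose, and in 17 of 27 promoters of the interferon list (63.0%), 8 of 14 of its called members (57.1%). They were in 0 of 31 NRF2 target promoters. Examples of called members follow to show the position of the match, in capitals, on the strand of the gene (GRCm38.p6).
Isg15, chr4:156200863-156200920, 78 bases before the start, the outermost of 3 overlapping matches: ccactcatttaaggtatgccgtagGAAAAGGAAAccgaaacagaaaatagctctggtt
Irgm2, chr11:58214889-58214946, 64 bases before: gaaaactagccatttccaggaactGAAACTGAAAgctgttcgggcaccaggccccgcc
Ifit1bl1, chr19:34602039-34602096, 104 bases before, opposite strand: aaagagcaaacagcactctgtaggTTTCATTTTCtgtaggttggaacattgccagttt
Rsad2, chr12:26456539-26456596, 120 bases before, opposite strand: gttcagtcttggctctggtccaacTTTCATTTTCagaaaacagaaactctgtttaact
Irgm2, a GTPase, had a log2 fold change of 1.37 ± 0.39 (0.73 without KO replicate 1) and Rsad2, viperin, of 1.72 ± 0.45, calls lost without KO replicate 1, WT replicate 2 or WT replicate 3 (adjusted p = 0.0781 to 0.149) and without KO replicate 1 or WT replicate 2 (adjusted p = 0.058 to 0.0651).

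Immune cell markers varied among libraries of the same genotype. Of 33 tested, none was higher and 1, the receptor gene Kit (-0.53), was lower, its call lost without KO replicate 1, KO replicate 2, WT replicate 1, WT replicate 2 or WT replicate 3 (adjusted p = 0.061 to 0.246), and their summed expression was 333, 210.0 and 192 CPM in the WT libraries and 184, 239 and 332 CPM in the KO libraries. Ptprc, the pan-leukocyte gene CD45, measured 45.3, 15.5 and 13.7 CPM in the WT libraries and 19.5, 21.8 and 51.9 CPM in the KO libraries, highest in KO replicate 3 and next in WT replicate 1, and Cd3e of T cells, with the same 2 libraries highest, measured 6.4, 2.49 and 2.1 CPM in the WT libraries and 3.78, 3.4 and 6.86 CPM in the KO libraries. The immune markers called higher numbered 3 without WT replicate 1, Cd3e among them (1.03 on the log2 scale, adjusted p = 0.0461), and those called lower 0 without KO replicate 1, KO replicate 2, WT replicate 1, WT replicate 2 or WT replicate 3 and 2 without KO replicate 3. Ptprc and Cd3e were above 0 in every library of both groups, and the part of immune cells in the interferon and antigen presentation changes was not tested. Of 18 stromal, endothelial and glial markers 2 rose and 1 fell. The rises numbered 0 without KO replicate 3, WT replicate 1 or WT replicate 2 and 1 without KO replicate 1 or WT replicate 3, and the decreases 2 without KO replicate 3. Pecam1, of endothelium, rose and measured 1.15, 1.15 and 1.23 CPM in the WT libraries and 2.4, 1.86 and 4.45 CPM in the KO libraries (1.29 ± 0.36, adjusted p = 0.0188), a call lost without KO replicate 3, WT replicate 1, WT replicate 2 or WT replicate 3 (adjusted p = 0.0514 to 0.0965). Col1a1, of fibroblasts, overlapped (0.43 ± 0.93, adjusted p = 0.813). The cytokine gene Il18, of epithelium, measured 30.8, 47.8 and 33.7 CPM in the WT libraries and 71.7, 68.9 and 61.6 CPM in the KO libraries (0.85 ± 0.15, adjusted p = 0.000684).

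**Figure D5:**
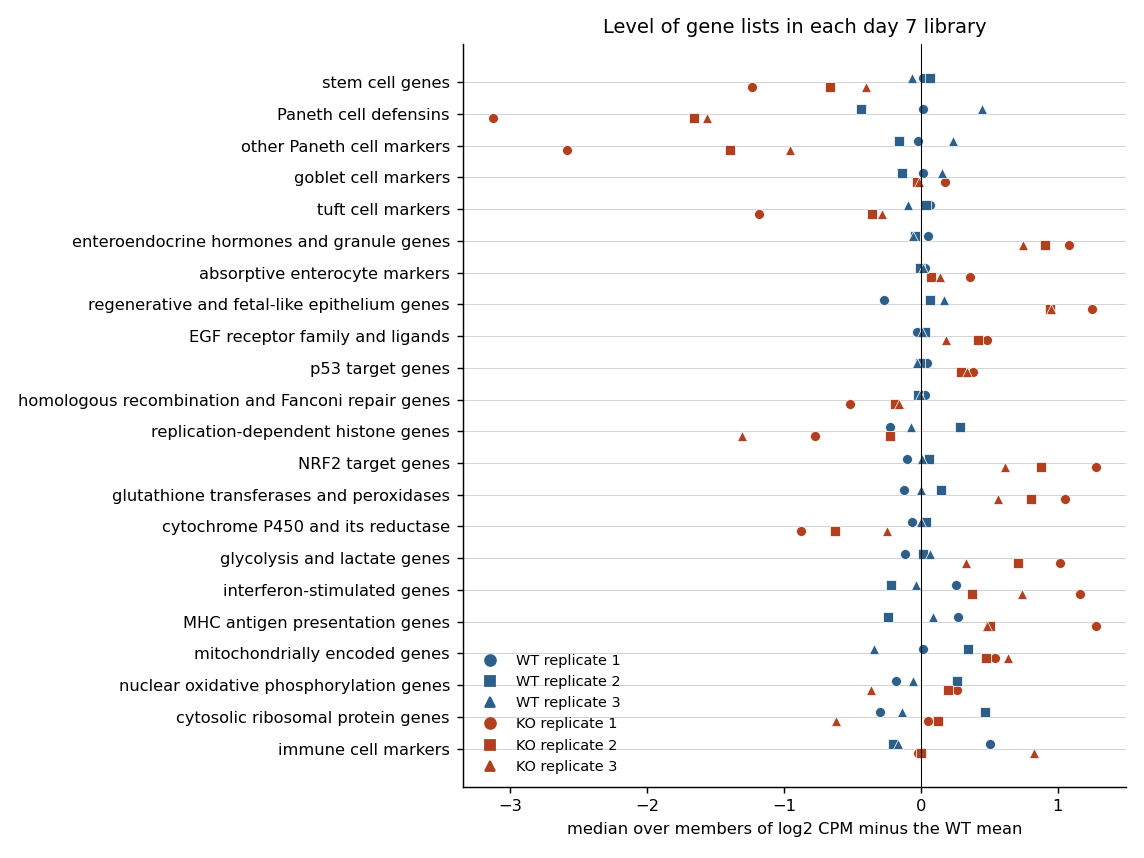
For 22 lists, the median over members of log2 CPM minus the WT day 7 mean, a point per day 7 library. KO replicate 1 is farthest from the WT libraries for the stem, Paneth, tuft, NRF2, glutathione and interferon lists, and KO replicate 3 is highest for immune markers.

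Of 46 enterocyte markers, 2 rose and 3 fell, a share below the background, while 17 lay higher in every KO library than in any WT library (15.9% of all genes tested did) and 7 lower (17.7% did), with a median of 0.20. Their summed expression did not overlap, at 33370.0, 33580.0 and 29620.0 CPM in the WT libraries and 49460.0, 36960.0 and 36590.0 CPM in the KO libraries. Fabp1, the liver-type fatty acid-binding protein, measured 375, 541 and 321 CPM in the WT libraries and 1692, 1074 and 853 CPM in the KO libraries (1.55 ± 0.40, adjusted p = 0.0129), and its call was lost without KO replicate 1, WT replicate 1 or WT replicate 3 (adjusted p = 0.0542 to 0.0734); Fabp2, the intestinal type, measured 693, 1198 and 462 CPM in the WT libraries and 2342, 1721 and 1402 CPM in the KO libraries (1.22 ± 0.39, adjusted p = 0.0387), lost without KO replicate 1, KO replicate 2, WT replicate 1 or WT replicate 3 (adjusted p = 0.0694 to 0.157). The brush border genes Alpi (0.95 ± 0.39, adjusted p = 0.109), Vil1 (0.38 ± 0.23, adjusted p = 0.293) and Sis (0.65 ± 0.30, adjusted p = 0.153) missed the threshold. The list's rises numbered 0 without KO replicate 1, WT replicate 1 or WT replicate 3, 1 without KO replicate 2 and 4 without KO replicate 3, its decreases 0 without KO replicate 1, WT replicate 1, WT replicate 2 or WT replicate 3 and 1 without KO replicate 2 or KO replicate 3, and no call of the list was stable. In vitamin A handling, Lrat, which esterifies retinol, measured 18.6, 15.4 and 12.5 CPM in the WT libraries and 2.45, 2.91 and 3.89 CPM in the KO libraries (-2.33 ± 0.21, adjusted p = 5.34e-07), and Rdh7, a retinol dehydrogenase, measured 52.1, 62 and 49.1 CPM in the WT libraries and 10.5, 13.6 and 11.8 CPM in the KO libraries (-2.18 ± 0.42, adjusted p = 0.00257). Both fell without overlap and in every fit, whereas Rbp2, the retinol-binding protein of enterocytes, rose 2.82-fold with a call lost without KO replicate 1, WT replicate 1 or WT replicate 2 (adjusted p = 0.054 to 0.0867). In fatty acid metabolism Cpt2, which regenerates acyl-CoA inside mitochondria, measured 54.9, 72.1 and 69.1 CPM in the WT libraries and 30.2, 24.4 and 20.1 CPM in the KO libraries (-1.39 ± 0.19, adjusted p = 5.19e-05), Slc27a2, an uptake protein, fell 1.84-fold, and the receptor Pparg rose 1.67-fold.

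Ion transport and clock genes held large single changes. Kcnq1, a potassium channel, measured 144, 176 and 142 CPM in the WT libraries and 18.9, 33.1 and 40.5 CPM in the KO libraries, 4.99-fold lower (-2.32 ± 0.20, adjusted p = 2.91e-07), Cftr, the chloride channel of crypts, was 1.79-fold lower and the water channel gene Aqp1 2.27-fold, while Slc26a3, a chloride and bicarbonate exchanger, rose 1.71-fold. All 4 calls were stable. Per3, a clock repressor, measured 26.4, 44 and 27.1 CPM in the WT libraries and 5.51, 4.91 and 6.99 CPM in the KO libraries (-2.48 ± 0.29, adjusted p = 2.04e-05), Hlf, an output factor, fell 6.0-fold (log2 fold change -2.59, and -3.38 without KO replicate 3), and the activator Arntl rose (0.88 ± 0.17, adjusted p = 0.0016). Nr1d1 overlapped (-0.18 ± 0.25, adjusted p = 0.691), and the hour of collection is not given in the sources used here. Among nuclear receptors the bile acid receptor Nr1h4 rose (0.63) and the glucocorticoid receptor Nr3c1 fell (-0.62). Esr1 measured 0.36, 0.128 and 0.219 CPM in the WT libraries and 4.4, 3.19 and 3.54 CPM in the KO libraries (3.85 ± 0.32, adjusted p = 2.91e-07) and had 4.35 at day 2; CreERT2 is a fusion with human oestrogen receptor sequence, and the part of transgene reads in this value was not tested. Lamb3, a laminin chain, rose 2.75-fold.

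Translation genes and nuclear-encoded energy genes showed few calls. None of 46 ribosomal protein genes and none of 41 nuclear oxidative phosphorylation genes passed the test in edgeR, against 17.3% of all genes. Before adjustment (p under 0.05) the ribosomal list had 0 higher and 0 lower members and the oxidative phosphorylation list 1 and 0, and DESeq2 called 0 genes of either; without KO replicate 3, 1 oxidative phosphorylation gene was called higher. Of 13 mitochondrially encoded genes 4 were called higher, mt-Nd1 at 2345, 3338 and 2155 CPM in the WT libraries and 5504, 4606 and 4215 CPM in the KO libraries (0.87 ± 0.24, adjusted p = 0.0169) among them, lost without KO replicate 1, WT replicate 1 or WT replicate 3 (adjusted p = 0.0675 to 0.0828). That count was 0 without WT replicate 3, 1 without KO replicate 1 or WT replicate 1 and 2 without KO replicate 2 or KO replicate 3, and no call was stable. Of 37 ribosome biogenesis genes 4 rose (1 without WT replicate 1 or WT replicate 3 and 2 without KO replicate 2), and Nop2, a nucleolar RNA methyltransferase, measured 37, 42.7 and 41 CPM in the WT libraries and 70.9, 75.1 and 73.8 CPM in the KO libraries (0.87 ± 0.13, adjusted p = 0.00019). Of 36 splicing factors and RNA-binding substrates of PRMT1, 4 rose and 2 fell. The rises numbered 2 without KO replicate 2, WT replicate 1, WT replicate 2 or WT replicate 3, and the decreases 1 without KO replicate 1, KO replicate 2, WT replicate 1, WT replicate 2 or WT replicate 3. Hnrnpa1 measured 151, 163 and 150.0 CPM in the WT libraries and 238, 244 and 210.5 CPM in the KO libraries (0.58 ± 0.12, adjusted p = 0.0025), and Cirbp, the cold-inducible RNA-binding protein, measured 15.8, 20.6 and 16.3 CPM in the WT libraries and 9.12, 8.18 and 9.21 CPM in the KO libraries (-0.99 ± 0.14, adjusted p = 0.000107). Both separated the groups, in opposite directions, and were stable. Tob1, an antiproliferative partner gene of PRMT1, measured 59.3, 54.1 and 51.7 CPM in the WT libraries and 173, 120.1 and 108 CPM in the KO libraries (1.28 ± 0.20, adjusted p = 0.000254).

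Further lists held scattered calls. Of 43 histone and DNA modifying enzymes 3 rose and 3 fell. The rises numbered 0 without KO replicate 1 or WT replicate 3 and 1 without WT replicate 2, and none was stable. Among the decreases was Tet1, which oxidises methylcytosine, with 4.35, 3.07 and 3.15 CPM in the WT libraries and 1.6, 1.93 and 1.7 CPM in the KO libraries (-1.02 ± 0.22, adjusted p = 0.00364). Of 23 Bcl2 family and apoptosis genes 6 rose and 4 fell, the survival gene Bcl2 at -0.84 ± 0.20 losing its call without KO replicate 1 (adjusted p = 0.0542). Those rises numbered 3 without KO replicate 1, KO replicate 2 or WT replicate 3, and those decreases 1 without KO replicate 1 and 2 without WT replicate 1 or WT replicate 2. Of 34 cholesterol genes 3 rose, 1 without KO replicate 1 or WT replicate 2 and 9 without KO replicate 3, and of 30 junction and adhesion genes 1 rose (4 without KO replicate 3) and 2 fell, among the latter Itgb6, an integrin of epithelium (-0.69 ± 0.16, adjusted p = 0.00568). Of 21 Myc targets none was called in edgeR, with 6 higher and 0 lower before adjustment (p under 0.05) and 2 higher and 0 lower by DESeq2, and the rises numbered 1 without WT replicate 3 and 7 without KO replicate 3. Of 14 Reg family and antimicrobial lectin genes 1 fell, Reg1, a secreted lectin (-1.71 ± 0.50, adjusted p = 0.0306), its call lost without KO replicate 1, KO replicate 3, WT replicate 1 or WT replicate 2 (adjusted p = 0.0561 to 0.0985), and also with no filter (0.0728) and with the day 7 libraries alone (0.0743).

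Called genes were spread over the chromosomes. The share of genes that fell was highest on chromosome 8, with 14.0% (161 of 1154), and the share that rose was highest among nuclear chromosomes on chromosome 19, with 10.7%. Genes that rose had a median exonic length of 3405 bases and genes that fell 3780 bases, against 2936 bases for genes not called.

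Set against day 2, the KO effect differed at 934 genes, 4.37% of those tested, in a test of the difference itself (285 toward higher and 649 toward lower at day 7), and 919 of these were also called at day 7. Both tests use the day 7 libraries, so a large overlap is built in. The genes that rose at day 7 had a median of 0.046 at day 2 and those that fell -0.070. Kcnq1 (-0.08 at day 2, difference -2.24, adjusted p = 0.000107), Brca2 (-0.19, difference -1.68, adjusted p = 0.000105), Gsta3 (0 at day 2 to 2 decimals, difference 3.15, adjusted p = 5.99e-05) and Tph1 (-0.15, difference 2.00, adjusted p = 0.00023) were among them. Lyz1 went from 0.37 to -1.80 (adjusted p of the difference = 0.0255) and Lgr5 from -0.05 to -1.59 (adjusted p = 0.0392). For Plk2 the difference did not pass (0.63, adjusted p = 0.373), nor did it for Phlda3 (adjusted p = 0.854). The count of differences was 431 without KO replicate 1 and 584 to 585 without 1 of the WT libraries.

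Set against day 14, no gene had a KO effect that differed from day 7 at an adjusted p under 0.05 in edgeR or in DESeq2 (0% of those tested), while 953 and 1012 did before adjustment, fewer than 5% of the genes tested, which is 1067. This depended on the setting: before adjustment the count was 629 without KO replicate 1, 1863 without KO replicate 3 and 1268 with the replicate block. The genes that rose at day 7 had a median of 0.55 at day 14 and those that fell -0.62. They were chosen by their day 7 call, which alone can make medians on other days smaller. Gsr was 1.54 at day 7 and 0.26 at day 14, Gclc 1.31 and 0.33, Lgr5 -1.59 and -0.83, and Ly6a 3.77 and 0.32. Slc2a13, Nr2e3 and Brca2 were -4.14, -3.50 and -1.87 at day 7 and -3.69, -4.26 and -1.55 at day 14. Tph1 and Chga were 1.85 and 1.03 at day 7 and 2.18 and 1.78 at day 14. The hormone and granule list had medians of -0.08, 0.99 and 1.03 at days 2, 7 and 14, the defensins 0.39, -1.97 and -0.92, and the stem cell genes 0.06, -0.74 and -0.35.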

How the data were processed

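Small intestinal crypts of Prmt1 KO and WT mice were profiled by ribosomal RNA-depleted total RNA sequencing (TruSeq, paired reads of 100 bases), with 3 libraries per genotype at days 2, 7 and 14. The authors aligned reads to mm10 with STAR 2.7.3 and deposited raw fragment counts per gene. These were made with featureCounts 1.6.4 and the GENCODE release M23 annotation per the file header, whereas their methods name release M26. The methods name HTSeq together with featureCounts for the counting. Fragments with several alignments were not counted, fragments over several genes were counted for each, and strand was not used, so near-identical copies lose reads and overlapping or antisense genes cannot be told apart.

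From these counts, 20 genes that the study had found to differ between male and female mice were left out, 0.0431% to 0.327% of the day 7 counts. The sex of each mouse is not in the labels. Genes with low counts were removed (filterByExpr by group), which left 21349 of 55335. All 18 libraries in 6 groups were fitted with edgeR 4.0.16 (TMM, robust quasi-likelihood test, R 4.3.3, limma 3.58.1), and p-values were adjusted over all genes tested (Benjamini-Hochberg, threshold 0.05). Errors are standard errors of the log2 fold change, derived from the fitted value and its F statistic, each over 3 libraries against 3. CPM used TMM-scaled library sizes and is not corrected for gene length. The test was tried on simulated data first. DESeq2 1.42.0, 3 other filters or normalizations, the day 7 libraries alone, a replicate block, the 20 genes kept, the 20 most abundant genes left out and each day 7 library left out in turn were the alternatives. Where a group had 3 counts or fewer in every library, the ratio of summed counts is given with an exact 95% interval conditional on the total, which covers counting error only. Python 3.11.15, pandas 2.3.3, numpy 2.4.6, scipy 1.17.1 and matplotlib 3.10.9 made the tables and plots. Promoters came from a RefSeq table of GRCm38.p6, matched by symbol.

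The comparison and the gene lists were chosen with earlier results of these data known. Named genes were Prmt1, the 12 largest non-overlapping changes each way with at least 1 CPM in the higher group and a gene symbol that is no provisional name, in each list up to 5 called members with the largest change and up to 3 with the highest mean, and a fixed set of cell type genes. Other genes named were picked after their values were seen, as in "Other observations". Some genes are not reported here. 3 symbols had 2 gene IDs, of which the ID with the higher mean was used.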

Additional observations from a re-analysis of the deposited data

Results flagged for a closer look

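The KO effect at day 7 differed from that at day 2 at 934 of the genes tested (4.37%), in the test of the difference itself, and 102 of the 216 genes named in the text were among them. Many genes were named for a large change at day 7, which is part of the difference. Their share is therefore raised by the choice and is not to be compared with 4.37%. The values that follow are the log2 fold change at day 7 minus the log2 fold change at day 2.

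For 49 of the named genes the difference was positive. Among NRF2 target genes, it was 1.68 for Abcc2, 3.75 for Akr1b8, 6.19 for Cbr3, 1.28 for Ftl1, 1.16 for G6pdx, 1.47 for Gclc, 1.26 for Gclm, 1.43 for Gsr, 2.11 for Me1, 1.61 for Nqo1, 1.25 for Pgd and 1.87 for Ugdh. Among regenerative and fetal-like epithelium genes, it was 4.1 for Areg, 1.62 for Il33 and 4.46 for Ly6a. Among enteroendocrine hormones and granule genes, it was 1.01 for Chga, 1.23 for Chgb, 1.2 for Gcg, 2.00 for Pyy and 2.00 for Tph1. Among glycolysis and lactate genes, it was 1.14 for Eno1 and 1.37 for Hk1. Among glutathione transferases and peroxidases, it was 2.96 for Gsta2, 3.15 for Gsta3, 4.52 for Gstm1 and 2.98 for Gstm3. Among interferon-stimulated genes, it was 3.58 for Igtp, 5.03 for Iigp1 and 2.31 for Irgm2, whose day 2 log2 fold changes were -1.22, -1.48 and -0.95. It was 2.00 for Mx2 and 1.6 for Zbp1. Among MHC antigen presentation genes, it was 2.26 for Psmb8, 1.52 for Psmb9 and 1.71 for Tap1. Outside these groups it was 0.96 for Arntl, 1.71 for Cdkn1c, 1.54 for Ces1f, 3.07 for Ces1g, 4.51 for G0s2, 2.41 for Krt12, 3.6 for Majin, 4.63 for Scd1 and 4.75 for Slc7a3. It was also 5.5 for Ubd (-1.06 at day 2), 0.65 for Hnrnpa1, 1.59 for Id4, 1.72 for Neurod1, 1.01 for Slc26a3 and 1.25 for Tob1.

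For 53 it was negative. Among lysosomal enzymes and membrane proteins, it was -1.22 for Aga, -2.44 for Arsb, -1.66 for Glb1 and -1.59 for Naglu. Among other Paneth cell markers, it was -2.6 for Ang4, -2.61 for Itln1, -2.17 for Lyz1, -2.25 for Mmp7, -2.94 for Mptx1, -2.38 for Pnliprp2 and -1.52 for Wnt3. Among BMP pathway genes, it was -2.11 for Bambi and -1.34 for Bmp7. Among primary cilium genes, it was -2.28 for Bbs2, -2.1 for Cep131 and -2.16 for Mks1. Among goblet cell markers, it was -1.62 for Ccl6, -1.55 for Guca2a and -1.42 for Spink4. Among G1 cyclins, CDK inhibitors and E2F, it was -0.99 for Cdk6, -1.2 for Cdkn2c and -1.29 for E2f7. Among cytochrome P450 and its reductase, it was -3.16 for Cyp2e1, -2.26 for Cyp2u1 and -1.26 for Cyp39a1. Among stem cell genes, it was -1.54 for Lgr5, -1.17 for Slc12a2, -1.38 for Smoc2, -0.84 for Sox9 and -1.53 for Tnfrsf19. Outside these groups it was -1.68 for Brca2, -1.04 for Cd24a, -1.48 for Ces2a, -0.83 for Cirbp, -1.11 for Cpt2, -3.4 for Crybb3, -3.9 for Echdc3, -2.9 for Fbp1 and -2.82 for Lyplal1. It was also -3.22 for Nr2e3, -3.63 for Scml2, -3.79 for Slc2a13, -2.88 for Xkr5, -2.44 for Zc3h6, -1.3 for Egf, -0.88 for Itgb6, -2.24 for Kcnq1 and -2.14 for Lrat. It was also -1.93 for Nkd1, -0.68 for Pdk1, -2.16 for Per3, -0.72 for Prmt3 and -2.05 for Ugt2a3.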

How the results depend on the processing

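Leaving out single libraries moved the day 7 counts more than any tool or filter did. Without 1 of the 6 day 7 libraries the genes called higher numbered 832 to 2013, those called lower 1219 to 2104 and those with a different KO effect at days 7 and 2 431 to 1295, the lowest count in each case without KO replicate 1; without WT replicate 1 or WT replicate 2 there were 952 and 1003 higher calls. Left out 1 at a time, the libraries moved the median log2 fold change of these lists by more than 1 SD of the libraries' list levels: immune cell markers (0.272, then -0.031 to 0.579), regenerative and fetal-like epithelium genes (1.207, then 0.932 to 1.496), M cell and regional genes (0.31, then 0.312 to 0.451), Wnt pathway and feedback genes (-0.26, then -0.32 to -0.128), Notch pathway and secretory fate genes (-0.03, then -0.148 to 0.039), G1 cyclins and CDK inhibitors (-0.111, then -0.125 to 0.043), p53 target genes (0.34, then 0.292 to 0.427), Bcl2 family and apoptosis genes (0.067, then 0.05 to 0.132), immediate early genes (0.506, then 0.5 to 0.647), MHC antigen presentation genes (0.855, then 0.365 to 1.004), chemokines and cytokines (0.509, then 0.268 to 0.649) and nuclear receptors (-0.001, then -0.042 to 0.084). The immune cell markers are the exception among these lists, as no fit moved their median by more than 1 SD. They are listed because that median changed sign, to -0.031 without KO replicate 3. Among named genes that missed the threshold the sign turned in some of these fits, with log2 fold changes of -0.16 to 0.188 for Asns, -0.031 to 1.029 for Cd3e, -0.135 to 0.928 for Col1a1, -0.052 to 0.158 for Epcam, -0.118 to 0.064 for Mki67, -0.074 to 0.15 for Muc2, -0.248 to 1.093 for Ptprc, -0.105 to 0.25 for Sst and -0.067 to 0.052 for Trp53; none of them was called in a fit that turned its sign. With a mean count of at least 50, which tests fewer members, the medians moved to 0.47 (enteroendocrine transcription factors), -1.475 (pancreatic acinar markers), 0.834 (regenerative and fetal-like epithelium genes), -0.123 (Wnt pathway and feedback genes) and 0.107 (EGF receptor family and ligands), and with the day 7 libraries alone that of immediate early genes to 0.616. Epcam, which missed the threshold, took values of -0.007 (no filter), -0.011 (mean count of at least 50), -0.004 (day 7 libraries only), -0.002 (replicate block) and -0.013 (20 most abundant genes left out), and Asns -0.001 with those 20 genes left out. Deviations of same-numbered KO and WT libraries from their group means correlated at -0.159, 0.206 and 0.0787 across genes. KO replicates 1 and 3 did not correlate best with their own number. With 3 libraries per group and the sex-related genes left out, these correlations cannot decide whether the numbers paired the samples. The sex-related genes left out held 0.13%, 0.145% and 0.0431% of the counts in KO replicates 1 to 3. In WT replicates 1 to 3 they held 0.327%, 0.291% and 0.0448%. The paper matched KO and control mice by age and sex. With the replicate number as a block the day 7 calls were 1858 higher and 2367 lower, 1366 genes had another KO effect at day 7 than at day 2, and 1 had another at day 14 than at day 7, against 2 with no filter. DESeq2 called 1758 genes higher and 2286 lower at day 7 and 1401 differences from day 2. Of the 185 named genes called, DESeq2 and DESeq2's size factors in edgeR lost 0; the other 6 changes of normalization, filter, samples or genes lost 0 to 10, and leaving out a library lost 3 to 24. The cause of these changes was not tested, apart from the smaller number of samples or genes. Named genes that lost their call, with their adjusted p, were with no filter Brca1 (0.0536), Defa30 (0.0501), Fabp1 (0.0516), Fabp2 (0.133), Iigp1 (0.0523), Irgm2 (0.0698), Por (0.107), Rbp2 (0.061), Reg1 (0.0728) and Rsad2 (0.0527), with the day 7 libraries alone Dclk1 (0.0654), Fancd2 (0.0552), Igtp (0.0888), Iigp1 (0.0973), Irgm2 (0.0743), Kit (0.0592) and Reg1 (0.0743) and with the block Cyp27a1 (0.0513). Those that gained one were with no filter Ascl2 (0.0211) and Ldha (0.0212), with the day 7 libraries alone Alpi (0.0216) and Clu (0.0222) and with the block Alpi (0.00835) and Fos (0.0356). Depth limits low genes: totals of 15285285 to 29330630 counts leave genes under 1 CPM with few reads, and 48 and 60 of the genes tested had no WT or no KO library above 3 counts, so that their fitted fold changes depend on the prior count.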

Other observations

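4 further groups of genes were put together after their values had been seen, so their counts are descriptions without a test of the group and are to be read beside the 7.11% of all genes that rose and the 10.2% that fell. Of 39 lysosomal enzyme and membrane genes, 11 fell and 0 rose, and 10 of the decreases were stable. Before adjustment (p under 0.05) 6 were higher, DESeq2 called 1 higher, and edgeR called 4 without KO replicate 3. Arsb, arylsulfatase B, measured 11.5, 11.2 and 12.4 CPM in the WT libraries and 1.56, 2.07 and 2.79 CPM in the KO libraries (-2.45 ± 0.18, adjusted p = 8.63e-08), and Glb1, the acid beta-galactosidase, measured 37.5, 39 and 44.8 CPM in the WT libraries and 10.8, 11.2 and 12.8 CPM in the KO libraries (-1.81 ± 0.15, adjusted p = 2.91e-07). The groups did not overlap for either gene, and their replicates lay close together. Naglu and Aga, which act on heparan sulfate and on glycoasparagines, had log2 fold changes of -1.56 and -1.43. At day 2 these 4 genes were at -0.01, -0.14, 0.03 and -0.21, and at day 14 at -2.17, -1.70, -1.28 and -1.21.

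Of 44 primary cilium genes, 11 fell and 1 rose (0 without KO replicate 1, WT replicate 2 or WT replicate 3), 8 of the decreases being stable. Bbs2, a BBSome subunit, measured 6.3, 7.92 and 4.95 CPM in the WT libraries and 0.934, 1.26 and 1.62 CPM in the KO libraries (-2.32 ± 0.23, adjusted p = 1.88e-06), Mks1, of the transition zone, measured 5.58, 8.95 and 6.04 CPM in the WT libraries and 1.69, 1.16 and 1.79 CPM in the KO libraries (-2.14 ± 0.22, adjusted p = 3.43e-06), and Cep131, a centriolar satellite gene, had a log2 fold change of -2.04 ± 0.33. None of these genes overlapped between the groups. Of 14 carboxylesterases, 2 rose and 4 fell. The decreases numbered 2 without KO replicate 3, WT replicate 2 or WT replicate 3, and 2 were stable. Ces1g measured 6.37, 4.54 and 4.73 CPM in the WT libraries and 32.7, 32.4 and 33.6 CPM in the KO libraries (2.65 ± 0.38, adjusted p = 0.00023) and Ces1f was 2.45-fold higher, while Ces2a measured 246, 356 and 264 CPM in the WT libraries and 81.8, 102 and 103 CPM in the KO libraries (-1.59 ± 0.28, adjusted p = 0.000658), so that genes of this family changed in opposite directions without overlap. Of 35 proteasome subunits 6 rose and 0 fell, but the count was 0 without KO replicate 1, 1 without KO replicate 2 or WT replicate 1, 3 without WT replicate 3 and 22 without KO replicate 3, and no call was stable.

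2 single genes outside all groups were also picked for their values. Krt12, a keratin known from cornea, measured 1.08, 1.28 and 1.18 CPM in the WT libraries and 13.2, 12.5 and 13.3 CPM in the KO libraries (3.47 ± 0.35, adjusted p = 2.05e-06), a tight change in each replicate. Ckb, the brain-type creatine kinase, measured 91.7, 72.5 and 95.7 CPM in the WT libraries and 521, 341 and 193 CPM in the KO libraries (2.02 ± 0.40, adjusted p = 0.00267), highest in KO replicate 1.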
